A study of Homo sapiens with 6 samples.

Results

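The genes described here are 8 HLA class II genes (HLA-DRA, HLA-DRB1, HLA-DPA1, HLA-DPB1, HLA-DQA1, HLA-DQB1, HLA-DMA and HLA-DMB), CD74 and CIITA. They are 10 of the 19775 genes to which the array's annotation gives a probe set of their own. All probe sets annotated to any of the 10 symbols were taken, which gave 32 of 54613 probe sets that are not controls. Of the 32, 26 named 1 gene and 6 named several HLA genes at once. The set was chosen because its genes stood far apart between the 2 cell types in these same arrays, so that difference is given below as a description, without a test.

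The cells compared were 231wCFry, a stable clone of the human breast tumour line MDA-MB-231 that carries the wild-type Fry cDNA of the Copenhagen (Cop) rat on a plasmid based on pEGFP-N1. They were set against MDA-MB-231 that had not been transfected, here called parental. There were 3 arrays of each. 231wCFry was picked after puromycin selection because its Fry level was near that of MCF10A, a non-transformed mammary epithelial line, so these arrays describe 1 clone, and the labels mention no clone carrying an empty vector. Both lines grew in Advanced DMEM with heat-inactivated serum and antibiotics, with no other treatment. The RNA samples of a line differed in passage number, which is not given per sample, so the spread between arrays may be biological, technical or both.

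HLA class II molecules are pairs of an alpha and a beta chain that carry peptides from the endosome to the cell surface and show them to CD4+ T cells. The invariant chain, CD74, holds the new pair together and blocks its groove until it reaches the endosome, and HLA-DM then exchanges the last piece of CD74 for a peptide. CIITA is the coactivator that turns all of these genes on together. It does not bind DNA itself but is held at their promoters by RFX, CREB and NF-Y proteins, and outside B cells, dendritic cells and macrophages it is usually made only after interferon gamma.

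Before the class II values, the arrays' labels were set against what they read. Signals were MAS5 intensities on a linear scale, compared as log2(signal + 16). A filter on low signal left 32771 tested probe sets. Over these, arrays of a group correlated at 0.992 to 0.995 and arrays of different groups at 0.869 to 0.874. Of the 32771, limma called 62.6% at an adjusted p under 0.05, 30.3% higher in 231wCFry and 32.3% lower. SOX10, a transcription factor of neural crest cells, read 1376, 1420 and 1390 in 231wCFry, against 0.2, 0.3 and 0.8 in parental cells, and KRT19, a keratin of simple epithelia, read 1.5, 0.9 and 0.9 in 231wCFry, against 1623, 1674 and 1709.9 in parental cells. The 2 groups therefore differ in genes that mark cell lineage, although both are labelled MDA-MB-231, and what is due to Fry, to the choice of 1 clone or to a difference in origin of the cells cannot be told apart in this design. The 4 probe sets for human FRY read at most 9.8 on any array, and since the cDNA was of rat they do not check the transgene.

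The promoters of the class II genes share an array of short elements called the X, X2 and Y boxes, which is where CIITA's partners bind. Windows of 300 bases, from 250 before to 50 after the gene start, were available from RefSeq (GRCh38.p14) for 8 of the 10 genes. HLA-DRA and CIITA are named only. The 5 windows shown are those of a DR, both DQ and a DP chain and of CD74, which lies on another chromosome. These genes were all higher in the transfected clone, which is the difference the whole set was chosen on. The order of the arrays within a group was not the same for all of them. Capitals mark ATTGG or CCAAT, the core of the Y box bound by NF-Y, AGCAAC or GTTGCT, a part of the X box, and CGTCA or TGACG, a part of the X2 box, searched on both strands. They lie at chr6:32589799-32590098, minus strand for HLA-DRB1, chr6:32637156-32637455, plus strand for HLA-DQA1, chr6:32666608-32666907, minus strand for HLA-DQB1, chr6:33075740-33076039, plus strand for HLA-DPB1 and chr5:150412861-150413160, minus strand for CD74, and each is written 5′ to 3′ on the strand of its gene.
HLA-DRB1: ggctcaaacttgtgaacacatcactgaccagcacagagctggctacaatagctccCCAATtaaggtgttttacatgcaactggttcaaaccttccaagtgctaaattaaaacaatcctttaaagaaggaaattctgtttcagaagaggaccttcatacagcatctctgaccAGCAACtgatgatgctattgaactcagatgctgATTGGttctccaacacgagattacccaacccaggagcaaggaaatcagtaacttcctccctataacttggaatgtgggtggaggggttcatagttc
HLA-DQA1: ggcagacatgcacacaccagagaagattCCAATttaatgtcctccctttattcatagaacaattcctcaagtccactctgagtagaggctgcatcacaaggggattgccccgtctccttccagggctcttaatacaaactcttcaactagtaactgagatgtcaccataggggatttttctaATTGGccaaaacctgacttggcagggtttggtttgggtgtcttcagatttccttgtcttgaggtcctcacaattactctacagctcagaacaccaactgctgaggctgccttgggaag
HLA-DQB1: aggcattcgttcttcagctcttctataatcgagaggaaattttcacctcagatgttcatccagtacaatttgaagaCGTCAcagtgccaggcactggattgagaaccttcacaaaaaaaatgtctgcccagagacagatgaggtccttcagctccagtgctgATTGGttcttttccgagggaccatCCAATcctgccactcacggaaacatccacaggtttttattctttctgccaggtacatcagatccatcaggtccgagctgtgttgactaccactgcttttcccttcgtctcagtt
HLA-DPB1: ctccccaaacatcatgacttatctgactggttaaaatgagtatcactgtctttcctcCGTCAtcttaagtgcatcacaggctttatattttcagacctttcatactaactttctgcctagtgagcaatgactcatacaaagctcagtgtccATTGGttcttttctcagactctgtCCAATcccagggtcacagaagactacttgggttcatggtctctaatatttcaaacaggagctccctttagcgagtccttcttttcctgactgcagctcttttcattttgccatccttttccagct
CD74: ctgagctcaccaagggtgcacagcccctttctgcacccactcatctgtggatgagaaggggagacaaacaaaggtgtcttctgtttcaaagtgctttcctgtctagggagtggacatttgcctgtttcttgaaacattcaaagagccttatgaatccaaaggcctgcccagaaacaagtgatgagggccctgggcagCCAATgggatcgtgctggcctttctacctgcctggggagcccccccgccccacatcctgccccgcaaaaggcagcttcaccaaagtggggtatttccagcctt
The Y box core stood in the windows of 7 of the 8 genes, and in 34.6% of all 35116 promoters of the same length. In HLA-DRB1 the copy nearest the gene start began 46 bases before it, in HLA-DQA1 68, in HLA-DQB1 64 and 88, in HLA-DPB1 75 and 99, and in CD74 53. The X box letters stood in 3 of the 8 genes and in 12.8% of all promoters, and in HLA-DRB1 they began 79 bases before the start, upstream of the Y box core. The X2 letters stood in 4 of the 8 genes and in 24.6% of all promoters. In HLA-DQB1 they began 174 and in HLA-DPB1 193 bases before the start, and whether these are X2 boxes was not tested. Counted by window, as the shares of all promoters are, the Y, X and X2 letters stood in 7, 3 and 5 of 9, since HLA-DPA1 has several windows. The longer form TGATTGG or CCAATCA, which contains the core and was chosen after the sequences had been seen, stood in 3 of the 8 genes and in 6.95% of all promoters. These are matches of letters in the reference sequence, and these genes are among the most variable between people, so the cells' own alleles may differ.

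**Figure D1:**
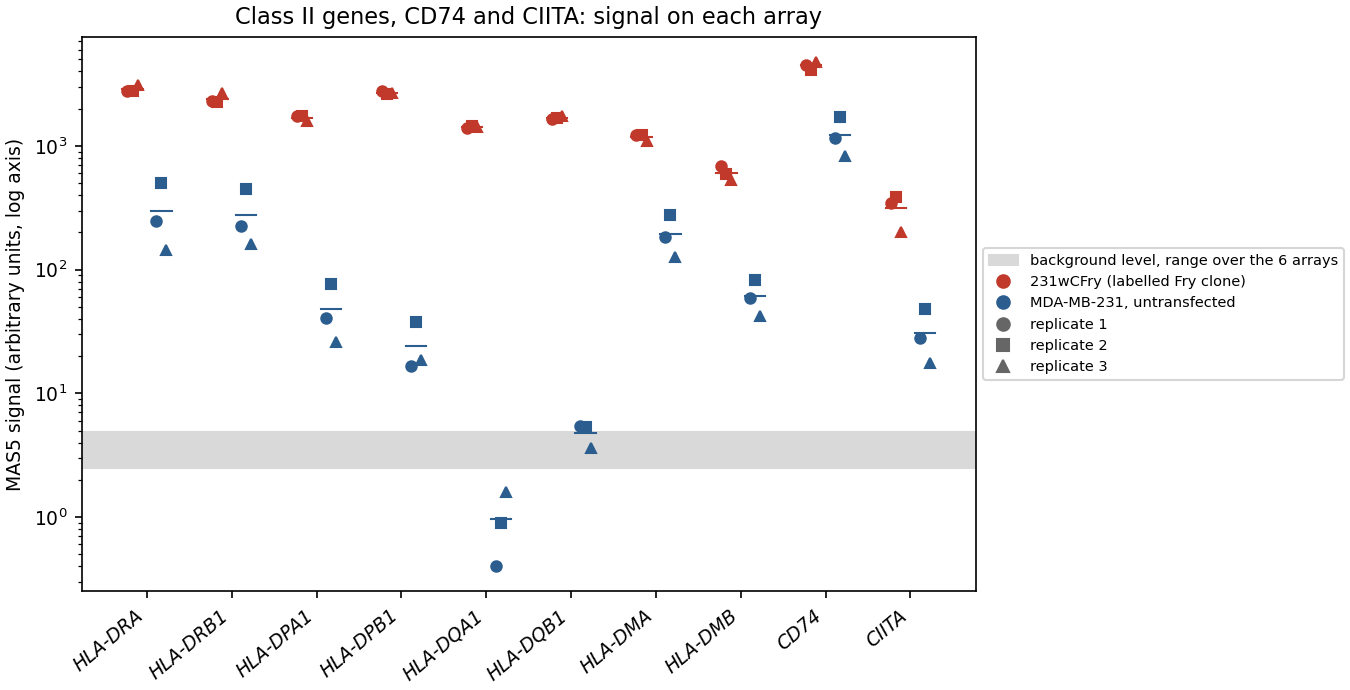
MAS5 signal (log axis) of the probe set with the highest mean for each of the 10 genes, 1 point per array and a line at the group mean, 231wCFry left of parental cells. The grey band spans the background levels of the 6 arrays. All 231wCFry points lie above all parental points of the same gene, and the parental points of HLA-DQA1 and HLA-DQB1 lie under 6, near background.

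The classical DR chains were present in both cell lines and higher in 231wCFry. HLA-DRA, the single alpha chain of all DR molecules, read 2794, 2771 and 3119 in 231wCFry, against 247, 501 and 145 in parental cells. Its log2 difference was 3.38 (SE 0.34), 11-fold. HLA-DRB1, the main DR beta chain, read 2301, 2253 and 2654 in 231wCFry, against 223, 449 and 161 in parental cells, a log2 difference of 3.16 (SE 0.29), 9.48-fold. For both chains the groups were far apart, and the parental arrays differed among themselves more than the 231wCFry arrays did. A mean signal of a culture cannot tell fewer expressing cells from less RNA per cell.

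The DP chains were above background in parental cells and higher in 231wCFry. HLA-DPA1, the alpha chain, read 1739, 1736 and 1601 in 231wCFry, against 40.9, 76.4 and 26.1 in parental cells, a log2 difference of 4.82 (SE 0.23), 39.0-fold. HLA-DPB1, its beta partner, read 2760.1, 2637 and 2690.5 in 231wCFry, against 16.6, 37.9 and 18.5 in parental cells, a log2 difference of 6.11 (SE 0.17), 119-fold. The 231wCFry arrays of each chain lay within a narrow band, and no parental array came near it.

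The DQ chains were at or close to background in parental cells. The background of an array was taken as the highest reading among its 27 unspiked bacterial control probe sets, which lay between 2.5 and 4.9 over the 6 arrays. HLA-DQA1, the alpha chain, read 1387, 1451 and 1419 in 231wCFry, and 0.4, 0.9 and 1.6 in parental cells, not above background on any of the 3. HLA-DQB1, the beta chain, read 1653, 1684 and 1742 in 231wCFry, against 5.4, 5.3 and 3.6 in parental cells, just above that level on each. The median of all probe sets, 10.4 to 12.1 per array, is a higher mark, and against it both parental groups count as not detected, with HLA-DQA1 at least 128-fold and HLA-DQB1 at least 152-fold higher in 231wCFry. On the log2 scale, where 16 is added to every signal, the differences were 6.40 and 6.36 (SE 0.09 each).

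The log2 differences of the genes that load the groove were smaller. HLA-DMA, the alpha chain of the peptide exchanger HLA-DM, read 1215, 1231 and 1089 in 231wCFry, against 185, 275 and 126 in parental cells, a log2 difference of 2.56 (SE 0.22), 6.34-fold. HLA-DMB, its beta chain, read 688, 588 and 529 in 231wCFry, against 59.2, 82.2 and 42.5 in parental cells, a log2 difference of 3.02 (SE 0.18), 10.1-fold. CD74 read 4511, 4136 and 4772 in 231wCFry, against 1156, 1715 and 831 in parental cells, a log2 difference of 1.90 (SE 0.22), 3.78-fold, the smallest of the 10 when each gene is taken by its brightest probe set. CD74 was thus well above background on every parental array.

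CIITA, the coactivator itself, was also measured in both lines. Its probe set 205101_at read 346, 388 and 202 in 231wCFry, against 27.8, 47.6 and 17.6 in parental cells, a log2 difference of 2.80 (SE 0.27), 10.5-fold. The groups did not overlap, and within 231wCFry replicate 3 read lowest. Replicate 3 also read lowest of its group for HLA-DPA1, HLA-DMA and HLA-DMB, and highest for HLA-DRA, HLA-DRB1, HLA-DQB1 and CD74. The other two CIITA probe sets, 210925_at and 211884_s_at, were below the filter, with readings of at most 4.2 on any array, so the gene rests on 1 probe set here.

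**Figure D2:**
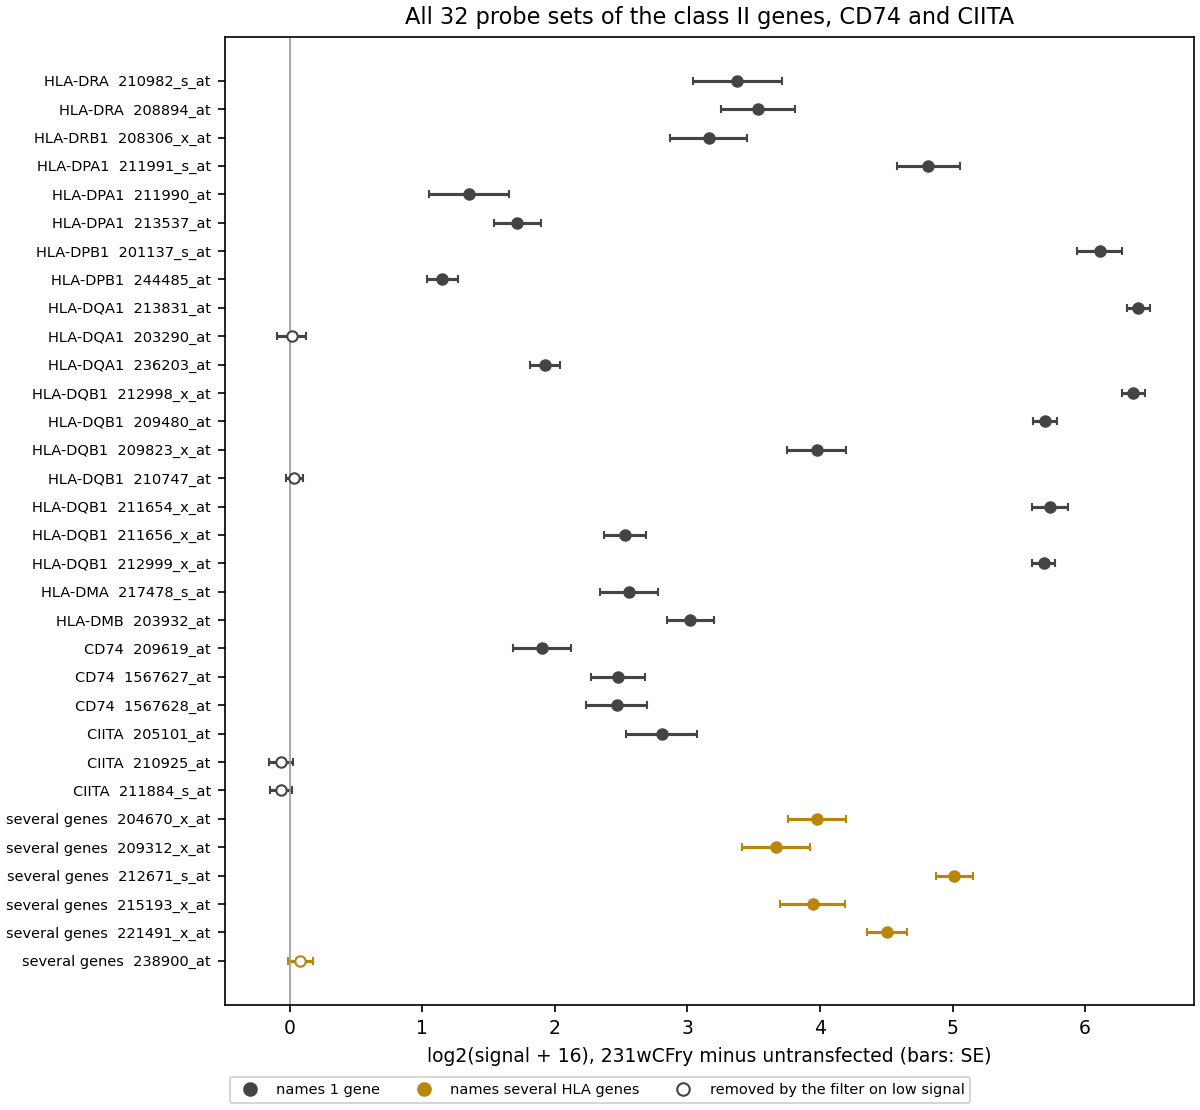
Log2(signal + 16) difference, 231wCFry minus parental, with its limma standard error, for all 32 probe sets, with those naming several HLA genes in a second colour and open points for those removed by the filter. The 27 filled points lie between 1.15 and 6.40 and the 5 open ones near 0.

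Of the 32 probe sets, 27 passed the filter and 5 did not. All 27 were higher in 231wCFry with groups that did not overlap, against 32.7% of all tested probe sets that were higher without overlap and 30.3% called higher by limma. The members were chosen on this contrast, so nothing is read from that count. Their median log2 difference was 3.53, with a range of 1.15 to 6.40, beside -0.02 over all 32771 tested. The 5 that did not pass were 1 probe set each of HLA-DQA1 (203290_at) and HLA-DQB1 (210747_at), the 2 of CIITA, and 238900_at, annotated to 4 DRB genes. Their groups overlapped, and they read at most 4.9 on any array.

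Probe sets of 1 gene did not always give the same size of difference. The 2 of HLA-DRA were close, at 3.38 and 3.53. Those of HLA-DPA1 ranged from 1.35 to 4.82. The smallest, 211990_at, read 320.4, 297 and 483 in 231wCFry, against 116, 229 and 81.9 in parental cells, 2.76-fold. The 3 of CD74 lay between 1.90 and 2.48, and the dimmer 2 were 6.81- and 6.36-fold higher. HLA-DQB1 has 7 probe sets, of which the 6 tested ranged from 2.53 to 6.36. All but 209480_at of these 6 are of the x type, which may bind transcripts of related genes. That 1 read 891, 785 and 878 in 231wCFry, against 0.2, 0.9 and 0.9 in parental cells, at least 76.5-fold higher in 231wCFry when set against the array median as above.

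DR beta genes are near-identical, so probe sets that name several of them cannot be assigned to 1. The 4 bright DR beta probe sets of this kind were 13.6- to 38.5-fold higher in 231wCFry. For example 215193_x_at read 3457, 3181 and 3661 in 231wCFry, against 184, 337 and 142 in parental cells. 3 of the 4 also carry the HLA-DQB1 name, although the HLA-DQB1 probe sets themselves read at most 8.8 in parental cells. 212671_s_at, shared by HLA-DQA1 and HLA-DQA2, read 505, 629 and 413 in 231wCFry, against 0.1, 0.5 and 0.1 in parental cells, at least 45.8-fold higher in 231wCFry by the same mark.

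Within the parental cells the class II genes did not read alike on the 3 arrays. Replicate 2 was highest and replicate 3 lowest for HLA-DRA, HLA-DRB1, HLA-DPA1, HLA-DMA, HLA-DMB, CD74 and CIITA, which lie on chromosomes 5, 6 and 16. Of the 18 probe sets above background on all 3 parental arrays, 16 (88.9%) stood in the order replicate 2, 1, 3, beside 17.0% of 30445 tested probe sets above background there. The ratio of the highest to the lowest array was at least 2 for 16 of the 18, with a median of 2.39 and a range of 1.5 to 3.46. Over all of those tested probe sets the median ratio was 1.24, and 7.35% reached 2. The order also held for 16 of the 18 after quantile normalization. Both this order and its alternatives were chosen after the values had been seen, and it is a description of 3 arrays that share their libraries across all genes.

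In 231wCFry the same genes were tighter. Of the 27 probe sets above background on all 3 arrays, 7 (25.9%) stood in the order 2, 1, 3, beside 20.7% of all tested. Their median ratio of highest to lowest was 1.15, and 1 reached 2. For CIITA the ratio was 1.92 in 231wCFry, beside 2.70 in parental cells, and for HLA-DRA 1.13 in 231wCFry, beside 3.46 in parental cells.

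**Figure D3:**
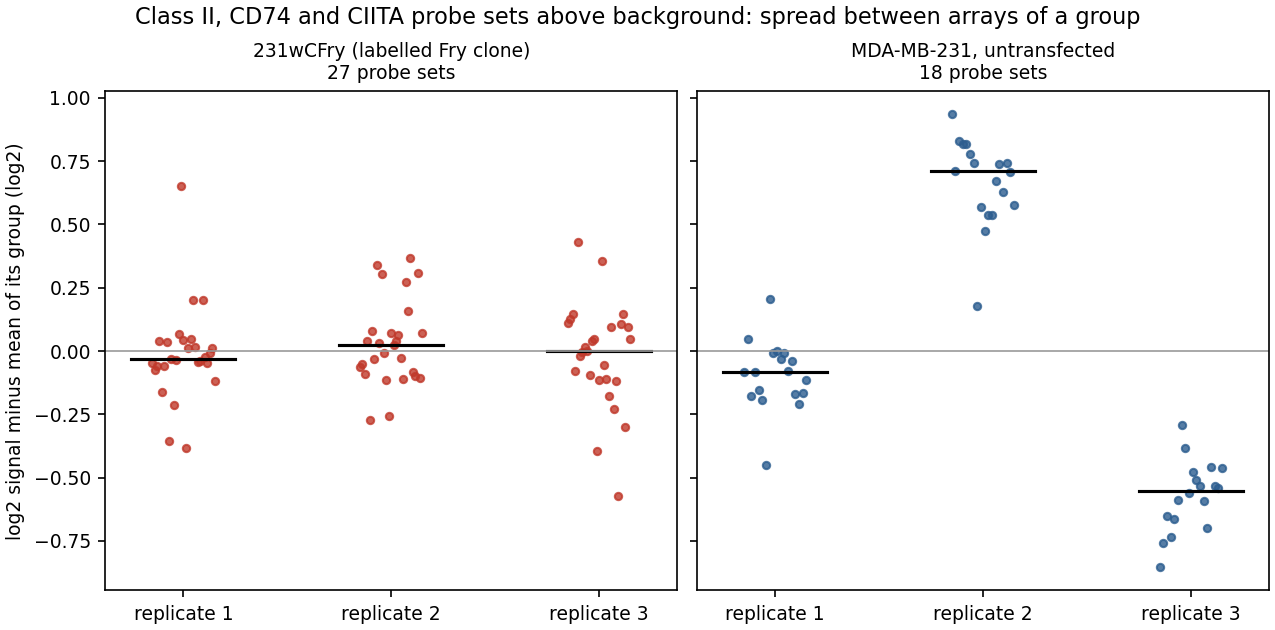
Deviation of each array from its group's mean log2 signal for the class II, CD74 and CIITA probe sets above background on all arrays of the group, 231wCFry on the left (27 probe sets) and parental cells on the right (18), 1 point per probe set and a line at the median. The medians lie at -0.03, 0.03 and 0.00 for 231wCFry replicates 1, 2 and 3, and at -0.08, 0.71 and -0.55 for parental replicates 1, 2 and 3.

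Few other genes varied as widely among the parental arrays. With a parental mean of at least 100, 15147 probe sets remained, of which 78 varied 2-fold or more and 41 of these stood in the order 2, 1, 3. All 9 class II, CD74 and CIITA probe sets with that mean were among the 41. Others, named after their values had been seen, were TNFSF10, the death ligand TRAIL, with 592, 950.1 and 297 on parental replicates 1, 2 and 3 (202687_s_at), GBP4, an interferon-induced GTPase, with 116, 196 and 72.3, and PLAAT4, a retinoid-induced phospholipase, with 1153, 1819 and 728. These names do not stand for the rest. LIPG (ratio of highest to lowest 3.31), AGR2 (2.94) and a probe set shared by SAA1 and SAA2 (2.88) varied more than GBP4 (2.70) and PLAAT4 (2.50). Of the 32 probe sets of other genes among the 41, 4 read higher on all 231wCFry arrays than on any parental array, 19 read lower and 9 overlapped. Over all 32771 tested probe sets, 32.7% were higher and 34.7% lower without overlap. The 32 were kept for a parental mean of at least 100, which favours genes lower in 231wCFry, so nothing is read from these counts. In 231wCFry TNFSF10 read 1.2, 0.1 and 6.0, GBP4 6.1, 0.6 and 1.2, and PLAAT4 60.8, 57.5 and 40.9. SORBS2, an actin-binding adaptor, was 1 of the 4, with 433, 438 and 386 in 231wCFry, against 113, 176 and 64.8 in parental cells. Class I and peptide loading genes varied less in parental cells, with a median ratio of 1.22 over 16 genes and none reaching 2. They leaned the same way, however, with parental replicate 2 highest for 13 of the 16, beside 4909 of the 15147 probe sets. The full order 2, 1, 3 held for 5 of the 16 (31.25%) and for 6 of 11 regulators of class II transcription (54.5%), beside 18.5% of the 15147.

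The genes most like HLA-DRA over the 6 arrays were found by the root mean square distance between centred log2 profiles. HLA-DRB1 was nearest, at 0.15. Outside the set the nearest 5 were SCG2, a granin of secretory granules, at 0.20, IGSF3 at 0.23, KYNU, kynureninase of tryptophan breakdown, at 0.30, MAP2, a microtubule protein of neurons, at 0.31, and MX2, an interferon-induced GTPase, at 0.32. SCG2 read 496, 522 and 530.2 in 231wCFry, against 27.1, 52.6 and 16.3 in parental cells. MX2 read 411, 461 and 388 in 231wCFry, against 21.7, 32.9 and 14.8 in parental cells. All 5 shared with HLA-DRA both the separation of the groups and the parental order. They were picked for closeness to it over these same 6 arrays, so this likeness follows from the choice and is no separate result. HLA-DMB ranked 9th by this distance, HLA-DMA 35th and CIITA 53rd of the 19775 genes with a probe set of their own, taken without the filter. The other members lay further off, with HLA-DPA1 ranked 349th, CD74 376th, HLA-DPB1 2300th, HLA-DQB1 3874th and HLA-DQA1 4305th.

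Turning to the genes that act with CIITA, regulators of class II transcription changed in both directions. Of 11 tested, 4 rose, 5 fell and 2 did not pass, with a median log2 difference of -0.13, beside 67.1% of all tested genes called (34.1% higher, 33.1% lower) and a median of 0.01. Groups did not overlap for 37.0% of all tested genes that were higher and 36.1% that were lower. EP300, a histone acetyltransferase that works with CIITA, read 747, 714 and 702 in 231wCFry, against 266, 289 and 341 in parental cells (log2 difference 1.23, SE 0.11, adjusted p = 7.36e-06). NLRC5, CIITA's counterpart for class I genes, read 280.4, 269.6 and 262 in 231wCFry, against 114, 135 and 111 in parental cells (1.08, SE 0.10, adjusted p = 1.1e-05). The NF-Y subunits NFYA and NFYB fell by 0.64 (adjusted p = 4.47e-04) and by 0.63 (adjusted p = 6.74e-04) on their brightest probe sets. Of the other 4 of NFYA tested, 1 was called lower and 3 did not pass. RFX5, the large RFX subunit, was bright in both, with 2102, 1951 and 2121 in 231wCFry, against 1692, 1789 and 1602 in parental cells (0.28, SE 0.09, adjusted p = 0.0231). Its call was lost without parental replicate 1 or 3 or 231wCFry replicate 1 or 3 (adjusted p = 0.0536 to 0.0742). All 11 regulators were above background on all 6 arrays.

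The interferon gamma pathway is the usual route to CIITA. Of 14 list genes 13 had a probe set of their own and 11 were tested, of which 1 rose, 4 fell and 6 did not pass, beside 34.1% of all tested genes higher and 33.1% lower. The median log2 difference was -0.21. Of the 6 that did not pass on their brightest probe set, 4 had another that was called, IFNGR1, PTPN2, PTPN11 and PIAS1, all only lower. The kinase JAK2 rose, with 47.9, 47.3 and 49.4 in 231wCFry, against 16.5, 22.0 and 16.7 in parental cells (0.90, SE 0.10, adjusted p = 3.03e-05). IRF1, the transcription factor that acts on a CIITA promoter, fell, with 133, 96.5 and 115 in 231wCFry, against 292, 323 and 225 in parental cells (-1.17, SE 0.15, adjusted p = 9.66e-05). The feedback inhibitor SOCS1 fell by 0.74 (adjusted p = 0.00379). SOCS3, another, fell by 1.12 (adjusted p = 5.75e-04) on its brightest probe set, but of its other 2 tested, 1 was called higher and 1 lower. The ligand gene IFNG was below the filter, with at most 2.5 in 231wCFry and at most 3.9 in parental cells.

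The remaining class II genes split, with 2 of 4 tested higher, 1 lower and 1 that did not pass, beside 34.1% of all tested genes higher and 33.1% lower. HLA-DOA, the alpha chain of the HLA-DM inhibitor HLA-DO, read 384, 503 and 309 in 231wCFry, against 3.6, 8.8 and 5.4 in parental cells, a log2 difference of 4.22 (SE 0.17, adjusted p = 3.52e-08), 70.4-fold. These parental readings lie under the parental array medians of 10.4 to 12.1, the mark used for the DQ genes, so the size of this fold is uncertain. Of its other 3 tested probe sets, 2 were called higher and 1 did not pass. Its beta partner HLA-DOB was dim in both and went the other way, with 9.4, 6.4 and 8.3 in 231wCFry, against 19.7, 12.8 and 15.3 in parental cells (-0.41, SE 0.11, adjusted p = 0.00847). The pseudogene HLA-DRB6 rose by 3.21 (SE 0.18, adjusted p = 3.77e-07) on an x-type probe set that may bind DRB1 transcripts. HLA-DRB4 read 7.1, 12.0 and 7.8 in 231wCFry, against 14.3, 15.5 and 7.7 in parental cells and did not pass (adjusted p = 0.248), but did without parental replicate 3 (adjusted p = 0.0441). HLA-DQB2, HLA-DPA2 and HLA-DPB2 were below the filter.

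Of 13 tested genes that prepare peptides in the endosome, 3 rose, 7 fell and 3 did not pass, beside 34.1% of all tested genes higher and 33.1% lower. The median log2 difference was -0.43. Of the 3 that did not pass on their brightest probe set, 2 had another that was called, CTSB and LAMP1, both only lower. CTSL, cathepsin L, a protease able to trim the invariant chain, read 365, 359 and 435 in 231wCFry, against 924, 878 and 884 in parental cells (-1.18, SE 0.10, adjusted p = 6.65e-06). CTSS, cathepsin S, the protease for that step in antigen-presenting cells, fell by 0.59 (SE 0.13, adjusted p = 0.00309) on its brightest probe set, but its other 2 tested did not pass. LGMN, the asparagine endopeptidase, fell by 0.63 (adjusted p = 4.53e-04), and CSTB, a cathepsin inhibitor, by 0.64 (adjusted p = 1.25e-04). LAMP2, a lysosomal membrane protein, rose by 0.86 (SE 0.10, adjusted p = 4.8e-05), though 1 of its other 3 tested probe sets was called lower.

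Genes for turnover of surface class II and for co-stimulation moved both ways. Of 12 tested, 6 rose, 4 fell and 2 did not pass, with a median of 0.28, beside 34.1% of all tested genes higher and 33.1% lower. ICOSLG, a co-stimulatory ligand counted among the 6, overlapped between groups, with 38.1, 38.7 and 25.1 in 231wCFry, against 21.2, 29.3 and 14.6 in parental cells. Its call was lost without parental replicate 1 or 3, without 231wCFry replicate 1 or 2, and with no filter, other pseudocounts or quantile normalization (adjusted p = 0.0655 to 0.163). MARCHF8, a ubiquitin ligase that can remove class II from the surface, read 117, 116 and 89.0 in 231wCFry, against 357, 382 and 333 in parental cells (-1.60, SE 0.12, adjusted p = 2.25e-06). CD274, the inhibitory ligand PD-L1, read 48.2, 42.6 and 49.3 in 231wCFry, against 784, 621 and 738 in parental cells (-3.54, SE 0.11, adjusted p = 6.71e-09). ICAM1, the adhesion ligand of T cells, rose by 2.15 (SE 0.15, adjusted p = 2.21e-06), and the receptor CD40 fell by 1.46 (SE 0.11, adjusted p = 2.81e-06). CD80 and CD86, the co-stimulatory ligands of professional antigen-presenting cells, were not above background on any of the 6 arrays, with at most 3.5 in 231wCFry and at most 3.3 in parental cells.

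Class I genes present peptides to CD8+ T cells and share some regulators with class II. Of 16 tested on their brightest probe set, 3 rose, 3 fell and 10 did not pass, beside 67.1% of all tested genes called, with a median log2 difference of -0.17. Of those 10, 5 had another probe set that was called: HLA-B, HLA-C and B2M only lower, PDIA3 only higher and TAPBP in both directions. Without parental replicate 2, 5 rose, and without parental replicate 1 or 3, 5 fell. HLA-B read 2699, 2549 and 2753 in 231wCFry, against 2888, 3525 and 3172 in parental cells (-0.26, SE 0.10, adjusted p = 0.0509), and passed as lower without parental replicate 1 (adjusted p = 0.0284). B2M, the light chain of class I, read 4166, 3750.2 and 4430.1 in 231wCFry, against 4219, 4705 and 4633 in parental cells (-0.14, SE 0.10, adjusted p = 0.262). The peptidase ERAP2 rose by 1.71 (SE 0.10, adjusted p = 4.71e-07) and HLA-F by 0.61 (SE 0.13, adjusted p = 0.00267), while the transporter subunit TAP2 fell by 1.21 (SE 0.10, adjusted p = 7.07e-06) and the peptidase ERAP1 by 0.40 (SE 0.10, adjusted p = 0.0052). TAP2 and ERAP1 each had 1 other probe set called higher.

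**Figure D4:**
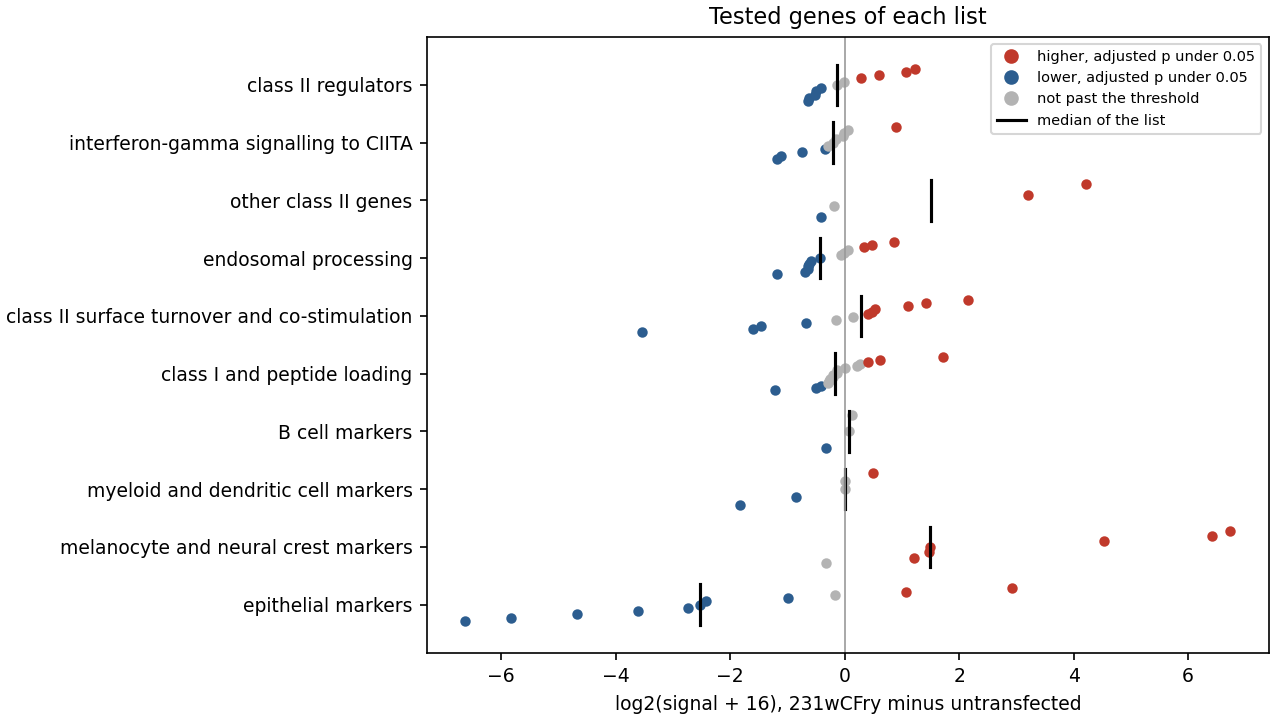
Log2(signal + 16) difference, 231wCFry minus parental, of every tested gene of each list, coloured by call at an adjusted p under 0.05, with a line at the list's median. The medians of regulators (-0.13), interferon gamma signalling (-0.21) and class I genes (-0.17) lie near 0, and those of melanocyte (1.49) and epithelial (-2.53) markers lie far from it.

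Along the short arm of chromosome 6 the class II genes are interleaved with genes of other functions, whose differences there lay between -1.21 and 0.27. The order is that of RefSeq genes (GRCh38.p14) from HLA-DRA to HLA-DPB1, with 10 genes on each side. Of 15 genes outside the HLA family there that had a probe set of their own, 12 were tested, of which 3 rose, 4 fell and 5 did not pass. Over all tested genes 34.1% were higher and 33.1% lower. The neighbours' median log2 difference was -0.03, beside 0.01 over all tested genes. TAP2, PSMB8, PSMB8-AS1, TAP1 and PSMB9 lie between HLA-DOB and HLA-DMB. TAP2 fell as given above, PSMB8 read 1286, 1238 and 1332 in 231wCFry, against 1107, 1178 and 915 in parental cells (0.27, SE 0.11, adjusted p = 0.0558), and PSMB8-AS1 (0.12), TAP1 (-0.28) and PSMB9 (0.22) did not pass either. Without parental replicate 2, PSMB8, PSMB8-AS1 and PSMB9 passed as higher (adjusted p = 0.0222 to 0.0469), and without parental replicate 3 TAP1 passed as lower (adjusted p = 0.0102). BRD2, between HLA-DMA and HLA-DOA, read 528, 592 and 531 in 231wCFry, against 668, 701 and 709 in parental cells (-0.33, SE 0.09, adjusted p = 0.011).

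The flanks moved by up to 1.77. On the HLA-DRA side NOTCH4, a Notch receptor, rose by 1.77 (SE 0.09, adjusted p = 1.6e-07) and GPSM3, a G-protein modulator, by 0.79 (SE 0.09, adjusted p = 4.66e-05), while the homeobox gene PBX2 fell by 0.89 (SE 0.10, adjusted p = 3.76e-05) and AGER did not pass (-0.19, adjusted p = 0.195). On the HLA-DPB1 side the collagen gene COL11A2 rose by 0.70 (SE 0.10, adjusted p = 1.69e-04), at 14.1 ± 1.25 in 231wCFry and 2.53 ± 1.48 in parental cells (SD, n = 3 each), and the retinoid receptor RXRB fell by 0.46 (SE 0.14, adjusted p = 0.0179), a call that was lost without parental replicate 1 or 2 or 231wCFry replicate 1 or 3 (adjusted p = 0.0538 to 0.0681).

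**Figure D5:**
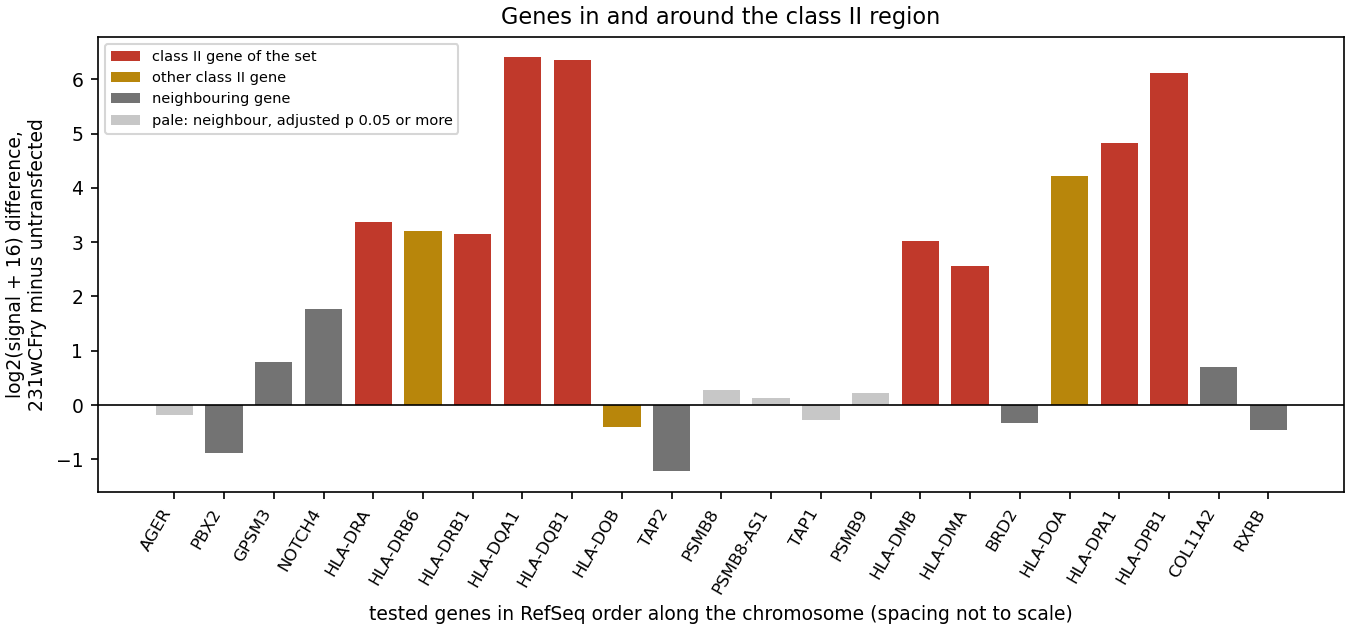
Log2(signal + 16) difference, 231wCFry minus parental, as bars from 0 in gene order from AGER to RXRB, leaving out genes without a tested probe set of their own. The red bars, class II genes described here, reach 2.56 to 6.40, and between them lie TAP2, TAP1, PSMB8, PSMB8-AS1, PSMB9 and BRD2 at -1.21 to 0.27.

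Markers of cells that normally make class II were also read. Of 7 B cell markers with a probe set 3 were tested, 0 rose, 1 fell and 2 did not pass, beside 34.1% of all tested genes higher and 33.1% lower. The summed signal of the list was 60.2 to 71.3 in 231wCFry and 73.7 to 87.1 in parental cells. The B cell surface gene MS4A1 read at most 2.7 in 231wCFry and at most 8.5 in parental cells. Of 12 myeloid and dendritic cell markers 5 were tested, 1 rose, 2 fell and 2 did not pass, beside the same shares of all tested genes. Their summed signal was 50 to 66.7 in 231wCFry and 97.7 to 135 in parental cells. PTPRC, the pan-leukocyte antigen CD45, read at most 3.9 in 231wCFry and at most 6.0 in parental cells. CSF1R fell by 1.82 (SE 0.13, adjusted p = 1.77e-06), with 2.5, 8.1 and 5.2 in 231wCFry, against 49.4, 63.8 and 64.5 in parental cells. LYZ, lysozyme, rose by 0.50 (SE 0.13, adjusted p = 0.00899), with 15.6, 24.3 and 16.3 in 231wCFry, against 5.2, 11.9 and 8.5 in parental cells. Each list's summed signal was lower in 231wCFry through 1 gene. Without CD22 the B cell sum was 23.7 to 30.1 in 231wCFry and 21.4 to 36 in parental cells, and without CSF1R the myeloid sum was 47.5 to 61.5 in 231wCFry and 48.3 to 70.5 in parental cells. The part of such cells in the class II difference was not tested.

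Lineage markers also differed between the groups. Of 7 tested melanocyte and neural crest markers 6 rose, 0 fell and 1 did not pass (1 fell without parental replicate 3), beside 34.1% of all tested genes higher and 33.1% lower. Their summed signal was 5016 to 5476 in 231wCFry and 386 to 471 in parental cells. PMEL, which did not pass (adjusted p = 0.114), read 8.2, 4.1 and 3.2 in 231wCFry, against 14.3, 13.8 and 4.3 in parental cells. MLANA and TYR rose but were dim, with means of 35.5 and 25.5 in 231wCFry. S100B, a calcium-binding protein of glia and melanocytes, read 1724, 1878 and 1709 in 231wCFry, against 1.7, 0.3 and 0.1 in parental cells (adjusted p = 1.34e-10). MITF, the melanocyte regulator, rose by 1.47 (SE 0.10, adjusted p = 1.86e-06) and the receptor ERBB3 by 4.53 (SE 0.13, adjusted p = 3.57e-09). Of 11 tested epithelial markers 2 rose, 8 fell and 1 did not pass, beside the same shares of all tested genes. Their summed signal was 1849 to 2009 in 231wCFry and 8820.3 to 9532 in parental cells. KRT18 made up most of the 231wCFry sum, with 1494, 1458 and 1568.5 in 231wCFry, against 2877, 3213 and 2887 in parental cells (adjusted p = 1.23e-05). SPINT2, a protease inhibitor of epithelia, read 4.5, 4.8 and 1.2 in 231wCFry, against 1148, 1026 and 1102 in parental cells (adjusted p = 3.25e-10). KRT8 fell by 4.67 (SE 0.12, adjusted p = 1.93e-09), and the basal keratin KRT14 rose by 2.93 (SE 0.09, adjusted p = 7.73e-09). The part of these lineage differences in the class II difference was not tested.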

How the data were processed

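Total RNA of 6 cultures was amplified with a NuGEN Ovation kit, labelled with biotin and hybridised to a 1-colour Affymetrix human design, per the labels' protocols. The deposited values are linear signal intensities from MAS5, as the authors made them, per the submitters' processing notes. Neither the version of MAS5 nor its scaling target was stated there. MAS5 subtracts mismatch signal, so readings near background run down to 0 and their ratios are unstable. Each array is 1 sample, and all 6 value columns were matched to a sample (0 left over).

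Gene names came from GEO's platform annotation. Leaving out controls, 41091 of 54613 probe sets carried 1 gene name, 1801 several and 11721 none. Intensities were taken as log2(signal + 16), which understates differences of dim genes, without further normalization. Probe sets with a mean over the 6 arrays at or above the 40th percentile, a signal of 5.87, were fitted in R 4.3.3 with limma 3.58.1 (lmFit, then eBayes), without covariates. All p-values are two-sided and adjusted over the 32771 tested probe sets by Benjamini-Hochberg, with a threshold of 0.05. A gene was represented by its single-gene probe set with the highest mean. Folds compare means of log2 signal, with a lower bound where no array of a group was above background. The fit was tested on simulated data. Same-numbered arrays of the 2 groups were checked for pairing. Their deviations correlated at 0.07 to 0.19, and those of differently numbered arrays at -0.134 to 0.079. The correlations were low and the labels name no pairs, so the numbers were not taken as pairs. Whether same-numbered arrays shared a batch was not tested.

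The genes and lists were chosen with earlier results of these data known. The text names every member, FRY, up to 4 genes with the smallest p in each list with a group above background, all genes of lists with under 4 tested, the other class II genes, the tested neighbours and the 5 most similar genes. Exceptions, chosen after their values were seen, are RFX5, IFNG, IFNGR1, PTPN2, PTPN11, PIAS1, CTSS, CTSB, LAMP1, CD80, CD86, ICOSLG, HLA-B, HLA-C, PDIA3, TAPBP and B2M. Further exceptions are MS4A1, PTPRC, PMEL, MLANA, TYR, KRT18 and the genes that varied among the parental arrays. Alternatives were other filters, pseudocounts, quantile normalization, a trended prior, a replicate block, probe sets without x, s or a types, and leaving out each array. GAPDH 3'-to-5' signal ratios were 1.24 to 1.33 in 231wCFry and 1.36 to 1.39 in parental cells. The precision of the values is limited by the 3 arrays per group. Plots were made in Python 3.11.15 (matplotlib 3.10.9).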

Additional observations from a re-analysis of the deposited data

How the results depend on the processing

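All 27 class II, CD74 and CIITA probe sets stayed higher in 231wCFry in each fit that left out 1 array, with no filter, with a pseudocount of 1 or 64, quantile normalization, a trended prior variance or a replicate block. A 60th percentile filter kept 25 of them, because 2 dim ones fell below it. With pseudocounts of 1 and 64 the log2 difference of HLA-DQA1 was 9.54 and 4.51, so its size depends on the added constant. The replicate block rests on numbers that the labels do not explain. With it, 10100 probe sets were called higher and 10742 lower in the whole table, against 9932 and 10574 without it, and 1 melanocyte marker fell instead of 0. The 60th percentile filter left 0 other class II genes lower, 5 class I genes lower, 0 myeloid markers higher and 0 lower, and 1 epithelial marker higher. With a pseudocount of 64, and with the trended prior, 7 class I genes were lower. Without probe sets of the x, s and a types 1 other class II gene was higher and 0 lower, 0 myeloid markers were higher and 4 epithelial markers lower. Leaving out each array gave 3 to 5 class I genes lower and 2 to 5 higher, 3 to 6 neighbouring genes higher, 1 to 2 other class II genes lower and 0 to 1 melanocyte markers lower. Genes near 0 changed sign: leaving out each array gave log2 differences of -0.0048 (without parental replicate 2) to 0.2226 for CD79B, -0.1042 (without parental replicate 1) to 0.1015 for FCER1G, also below 0 without 231wCFry replicate 2 (-0.0192) or 3 (-0.0452), and -0.0248 (without parental replicate 3) to 0.3478 for PSMB8-AS1. PSMB8 passed with the 60th percentile filter, a pseudocount of 64, quantile normalization and the trended prior (adjusted p = 0.0174 to 0.0483). HLA-B passed as lower with the 60th percentile filter, a pseudocount of 64 and the trended prior (adjusted p = 0.0112 to 0.0356). The cause of these changes was not tested. With background set at the array median, 15 class II, CD74 and CIITA probe sets instead of 12 had no parental array above it, so the folds of the DQ genes are bounds that depend on that level.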

Other observations

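Other leukocyte markers were dim in both lines. CD22, a B cell lectin, fell by 0.32 (SE 0.09, adjusted p = 0.0117), with 41.2, 37.1 and 35.2 in 231wCFry, against 48.7, 53.5 and 51.1 in parental cells. The other 2 tested probe sets of CD22 did not pass. CD79A and CD79B, the signalling chains of the B cell receptor, read at most 13.8 in 231wCFry and at most 11 in parental cells and did not pass (adjusted p = 0.521 and 0.424). CD14, a monocyte receptor, fell, with 3.0, 0.4 and 0.3 in 231wCFry, not above background, against 16, 17.2 and 12.3 in parental cells (adjusted p = 8.36e-05). FCER1G, an Fc receptor chain, read 5.0, 8.5 and 9.4 in 231wCFry, against 4.0, 8.1 and 10.6 in parental cells (adjusted p = 0.955).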
